A study of Mus musculus with 4 samples.

Results

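The cells described here are regulatory T (Treg) cells with RNA of Egr2, a transcription factor gene that T cells switch on within hours of a signal through the T cell receptor (TCR). They come from droplet single-cell RNA sequencing of sorted CD4+ Foxp3GFP+ cells of mouse liver and spleen, in which each RNA molecule is counted once by its unique molecular identifier (UMI). The cells were chosen by their measured counts: a barcode was taken as an Egr2 cell when it had 500 or more detected genes, 10% or less of its UMIs from mitochondrial genes, at least 1 UMI of Foxp3 (the lineage factor of Treg cells), at least 1 UMI of Egr2, and not both Cxcr5 and Pdcd1, whose joint detection marks follicular Treg cells. The Egr2, Foxp3, Cxcr5 and Pdcd1 counts are therefore descriptions and no findings. Of 24546 deposited barcodes, 536 were Egr2 cells, and they were set against 12896 Foxp3 cells that met the same limits but had no Egr2 UMI. The 7-week liver library held 9 Egr2 cells, the 7-week spleen library 185, the neonatal liver library 131 and the neonatal spleen library 211. The Foxp3 cells without an Egr2 UMI numbered 1439, 3538, 3981 and 3938 in the same libraries.

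All mice were C57BL/6 with a GFP-tagged Foxp3 gene, so that GFP marks cells that make Foxp3. There was 1 library for each of 4 groups: the liver and the spleen of 7-week-old mice, whose stage label reads aged, and the liver and the spleen of 12-day-old mice, called neonatal. The study describes the 12-day mice as Foxp3GFP-Cre with a Rosa26 YFP reporter behind a loxP-flanked stop, in which Cre made under the control of Foxp3 switches on YFP; the labels do not say whether the 7-week mice carried these alleles, nor how many mice went into a library. CD4+ cells were enriched with magnetic beads and sorted by flow cytometry, and the libraries were made with a 5′ kit that also amplifies TCR sequences.

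EGR2 belongs with EGR1, EGR3 and EGR4 to a family of zinc finger factors that respond quickly to the calcium, NFAT and MAP kinase signals of the TCR. In T cells EGR2 and EGR3 are known for feedback that restrains further activation, and NAB1 and NAB2 are co-repressors that bind EGR proteins. The NR4A nuclear receptors are induced by the same signals, and Nr4a1 reporters are widely used to read recent TCR signalling. Treg cells need TCR signals to take on and keep their effector state, and these factors take part in that response.

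The promoter windows of 3 of these genes are shown because their RNA defines the cells or rose in them, and because they differ in the motifs they hold. Each is the 250 bases before the annotated start, 5′ to 3′ on the plus strand, from RefSeq on GRCm38.p6: Egr2 at chr10:67535249-67535498, Nr4a1 at chr15:101266596-101266845 and Nr4a3 at chr4:48045055-48045304. The table gives 5 windows for Egr2, and the first is shown. In Nr4a1 the capitals mark the CRE-like motif TGCGTCA, found 4 times, and an EGR motif (GCGTGGGCG or GCGGGGGCG), found once on the minus strand. In Nr4a3 they mark the CRE half-site TGACG, found 4 times on either strand.
Egr2: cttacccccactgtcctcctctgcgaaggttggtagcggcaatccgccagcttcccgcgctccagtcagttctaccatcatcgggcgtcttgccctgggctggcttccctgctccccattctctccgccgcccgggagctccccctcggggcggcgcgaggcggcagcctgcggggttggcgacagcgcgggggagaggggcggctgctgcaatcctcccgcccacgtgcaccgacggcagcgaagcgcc
Nr4a1: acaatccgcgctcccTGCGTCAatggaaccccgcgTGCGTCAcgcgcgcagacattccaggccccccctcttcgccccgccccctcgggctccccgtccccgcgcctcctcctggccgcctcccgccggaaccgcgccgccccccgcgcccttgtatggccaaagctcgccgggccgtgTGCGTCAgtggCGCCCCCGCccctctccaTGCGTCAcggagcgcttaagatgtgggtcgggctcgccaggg
Nr4a3: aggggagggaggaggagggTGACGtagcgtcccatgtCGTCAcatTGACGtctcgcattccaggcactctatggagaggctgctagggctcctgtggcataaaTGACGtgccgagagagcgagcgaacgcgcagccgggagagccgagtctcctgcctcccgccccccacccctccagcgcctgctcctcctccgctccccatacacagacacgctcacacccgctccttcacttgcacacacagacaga
None of the motifs searched was in the Egr2 window, which says only that these letters are absent from it. On both strands and over windows of 300 bases, TGCGTCA was in 5.22% of the windows of genes higher in Egr2 cells, in 3.16% of those of genes lower in them, in 4.39% of those of all genes tested and in 2.19% of all windows. TGACG, which overlaps every TGCGTCA on the other strand, was in 40.4%, 23.5%, 34.8% and 21.0% of these windows. The EGR motif was in 6.96%, 5.61%, 6.66% and 3.49%, and the full CRE (TGACGTCA) in 3.91%, 1.05%, 3.58% and 1.88%. The shares of the EGR motif and the full CRE in genes higher in Egr2 cells were therefore close to those of all genes tested. The CArG box, the motif of the factor SRF, was in 2.83%, 0.702%, 1.21% and 1.57% of these windows in the same order. Its share was thus higher in genes higher in Egr2 cells, on 13 windows. The NFAT motif GGAAAA was in 21.3%, 24.9%, 20.7% and 23.6%. No test was made of these shares. Windows were found for 460 of the 600 genes higher, 285 of the 371 lower and 8019 of the 10178 tested.

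The markers of the labelled cell type were present. All 6 T cell markers (Cd3d, Cd3e, Cd3g, Trac, Trbc2, Cd4) and all 4 Treg markers (Foxp3, Ikzf2, Il2ra, Ctla4) were detected in the Egr2 cells of every library. The 4 Treg markers summed to between 1703 and 2275 CPM (UMIs of a gene per 1000000 UMIs of the summed cells) in Egr2 cells. In the other Foxp3 cells they summed to between 1468 and 1751 CPM. Foxp3 was required by the rule in both classes, so its detection and its part in these sums are no evidence of the cell type. The rule did not use Ikzf2, Il2ra and Ctla4. Kupffer cell, neutrophil and stellate cell markers were at 0 in the Egr2 cells of all 4 libraries. In the other Foxp3 cells each of these lists summed to 0.572 CPM or less. A single UMI is 0.644 CPM in the Egr2 cells of neonatal spleen, the largest of their sums, so these values of 0 say little. B cell markers summed to 290 to 416 CPM in Egr2 cells, with 2 to 5 of 6 detected, against 415 to 668 CPM in the other Foxp3 cells. Dendritic cell markers summed to 58.6 to 186 CPM, against 94.1 to 149 CPM, with Itgax, Flt3, Xcr1, Clec9a and Siglech at 0 in the Egr2 cells of every library. Endothelial markers summed to 28.9 to 89.7 CPM, against 46.8 to 60.0 CPM, with Cdh5 and Kdr at 0 in Egr2 cells. Erythroid markers reached 79.8 CPM in the Egr2 cells of neonatal spleen, against 364 CPM in the other Foxp3 cells there. Without barcodes with 2 or more markers of another lineage, 561 genes were higher in Egr2 cells and 319 lower, against 600 and 371 with them. Of the 971 main calls 814 were made again, all in the same direction. The part of each lineage by itself, or of barcodes with fewer such markers, was not tested. Macrophage and monocyte markers reached 40.9 CPM in the Egr2 cells of 7-week spleen, against 10.5 CPM in the other Foxp3 cells there. In those Egr2 cells 5 of 7 were detected, with Csf1r and Adgre1 at 0. In 7-week liver, neonatal liver and neonatal spleen the sums were 0, 8.51 and 18.7 CPM, against 2.69, 9.65 and 25.1 CPM. Hepatocyte markers were at 12.3 CPM in the Egr2 cells of neonatal liver, against 4.44 CPM. They were at 0 in those of the other libraries, against 10.1 CPM in 7-week liver. Summed UMIs of the Egr2 cells were 44585, 831448, 1057168 and 1553313 in 7-week liver, 7-week spleen, neonatal liver and neonatal spleen. The libraries shared between 23 and 91 barcodes with each other.

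The 7-week liver library stands apart. Its 9 Egr2 cells gave 3 Egr1 UMIs and 6 Nr4a1 UMIs, and none of them had more than 1 of Egr1, Egr3 and Nr4a1 detected. A single UMI in these cells is 22.4 CPM. Its values are given throughout, and results that rest on it are given without it.

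The share of Foxp3 cells with an Egr2 UMI was lowest in 7-week liver. It was 0.622% (95% exact binomial interval 0.285 to 1.18) in 7-week liver, 4.97% (4.29 to 5.72) in 7-week spleen, 3.19% (2.67 to 3.77) in neonatal liver and 5.09% (4.44 to 5.80) in neonatal spleen. Depth differed too, with a median of 2918 UMIs per Foxp3 cell in 7-week liver, 3107 in 7-week spleen, 4995 in neonatal liver and 4927 in neonatal spleen. When every cell was thinned to 1000 UMIs, the shares were 0.0713% (1 of 1402 cells) in 7-week liver, 2.14% (1.70 to 2.67) in 7-week spleen, 0.962% (0.682 to 1.32) in neonatal liver and 1.41% (1.07 to 1.82) in neonatal spleen. Egr2 RNA over all Foxp3 cells gave the same order, with 2.46 CPM (1.27 to 4.30), 31.0 CPM (28.1 to 34.2), 10.3 CPM (9.13 to 11.7) and 17.1 CPM (15.5 to 18.8). Thus 7-week spleen stood above neonatal spleen in CPM, and each liver stood below the spleen of the same age, with counting intervals that did not overlap; the thinned shares had the same order, with overlapping intervals between the neonatal libraries and between the spleens. This describes 4 libraries, with no test between them.

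Naive T cells should hold little Egr2 RNA, and barcodes with Dapl1, a gene of naive T cells, and without Foxp3 gave a level of background. An Egr2 UMI was found in 2 of 219 of them over all libraries, or 0.913% (0.111 to 3.26), and in 0.943% (0.114 to 3.37) after thinning; both were in neonatal spleen, where they were 1.79% of 112 thinned barcodes, and the other libraries had 0 of 20, 0 of 24 and 0 of 59. Their median depth ran from 2764.5 to 4372.5 UMIs. The raw shares of the spleens lie above the pooled interval. The 7-week liver share lies below the pooled share, and the thinned shares of all 4 libraries lie within or below the pooled interval, so a thinned share is not told from this background by itself. Foxp3 cells with both Cxcr5 and Pdcd1, the follicular Treg cells left out by the rule, had an Egr2 UMI in 0 of 10 in 7-week liver, 17 of 105 (16.2%) in 7-week spleen, 2 of 45 (4.44%) in neonatal liver and 20 of 146 (13.7%) in neonatal spleen. They were deeper, with medians of 4234.5 to 8301 UMIs, and their thinned shares were 0%, 5.71% (2.13 to 12.0), 2.22% and 4.11% (1.52 to 8.73).

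**Figure D1:**
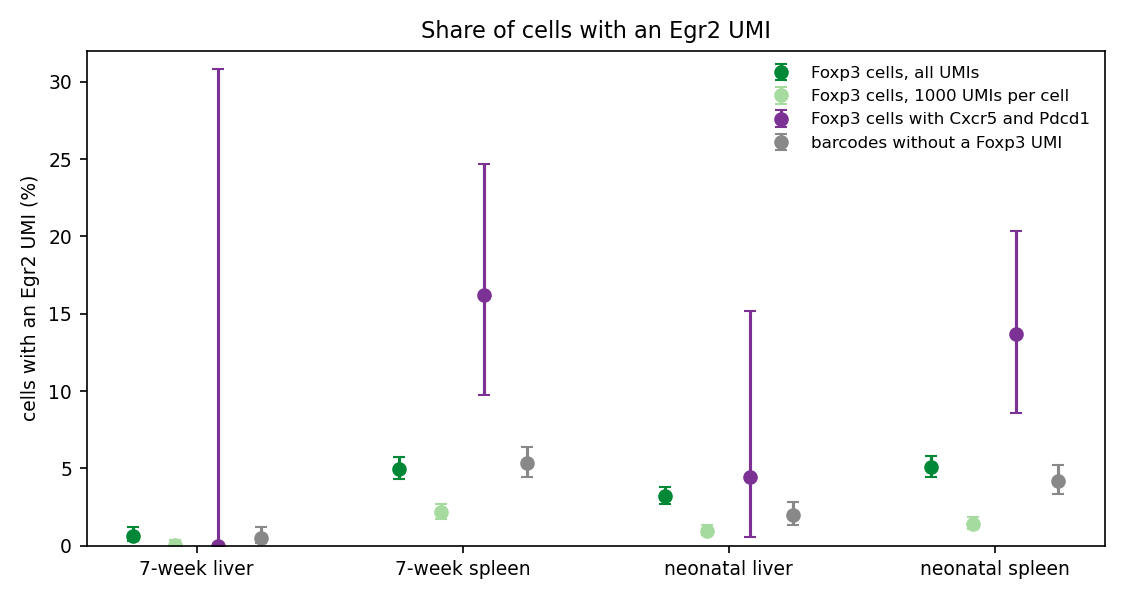
Percent of cells with an Egr2 UMI in each library, with exact 95% binomial intervals, for Foxp3 cells with all UMIs, Foxp3 cells thinned to 1000 UMIs, Foxp3 cells with Cxcr5 and Pdcd1, and barcodes without a Foxp3 UMI. The 7-week liver share of 0.622% is the lowest of the 4 shares of Foxp3 cells with all UMIs, and the follicular cells stand at 16.2% in 7-week spleen and 13.7% in neonatal spleen.

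Most Egr2 cells held little of the transcript. The rule's limit was 1 UMI: 8, 109, 88 and 119 cells of 7-week liver, 7-week spleen, neonatal liver and neonatal spleen lay just inside it with exactly 1, and the comparator lay just outside it with 0. The highest count in a cell was 4, 28, 12 and 30 UMIs in these libraries.

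Beyond Egr2 itself, Egr2 cells had more RNA of the other EGR and NR4A factors, of receptors and cytokines of activated Treg cells, and of ribosome biogenesis genes, and less RNA of genes of resting, recirculating T cells. UMIs were summed over each class in each library, and the classes were compared with edgeR's quasi-likelihood test with the library as a block and Benjamini-Hochberg adjustment over all 10178 genes tested. At an adjusted p under 0.05, 600 genes were higher in Egr2 cells (5.9%) and 371 lower (3.65%), which is 9.54% in either direction. Egr2, Foxp3, Cxcr5 and Pdcd1 chose the cells and were not tested. DESeq2 called 203 genes higher and 85 lower, of which 287 were among the 971 of edgeR. Without the library block the counts were 13 and 0. Egr2 cells were also deeper, with medians of 3295, 3796, 6721 and 6027 UMIs per cell in 7-week liver, 7-week spleen, neonatal liver and neonatal spleen, against 2917, 3072.5, 4962 and 4886 in the other Foxp3 cells. Against a comparator with 3 cells of like depth for each Egr2 cell, 432 genes were higher and 258 lower, 594 of them shared with the main result. Leaving out a library gave 586 higher and 325 lower without 7-week liver, 421 and 209 without 7-week spleen, 338 and 188 without neonatal liver, and 361 and 174 without neonatal spleen.

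**Figure D2:**
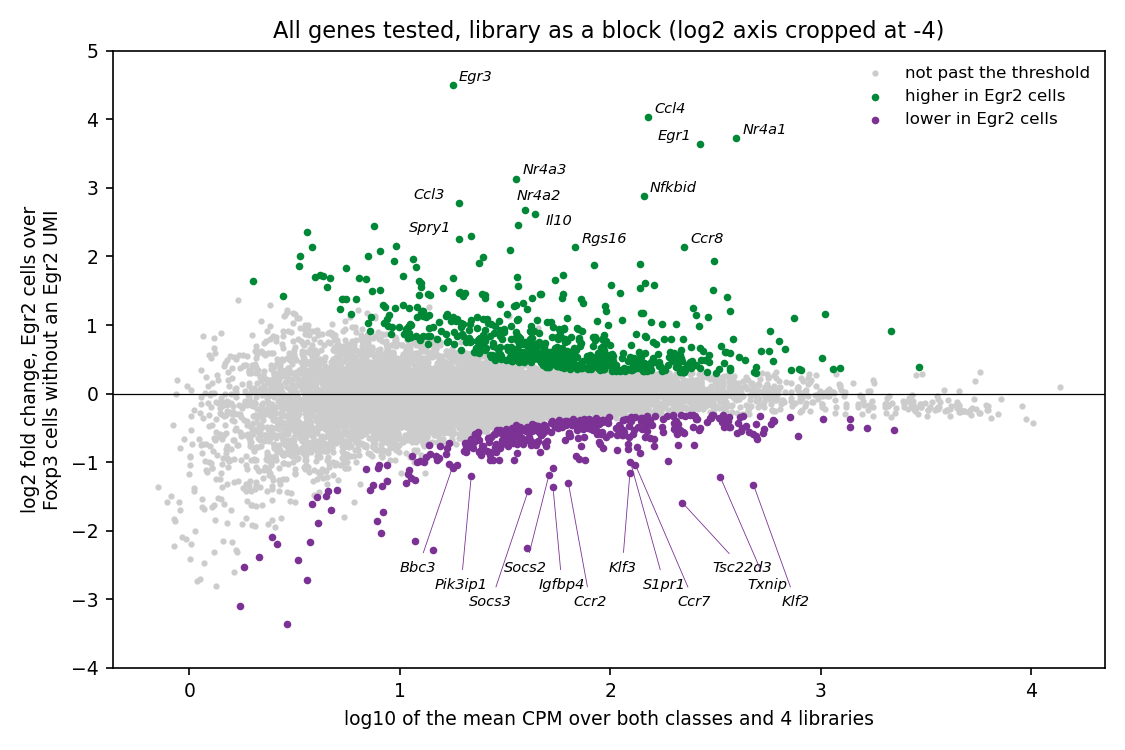
Log2 fold change of Egr2 cells over Foxp3 cells without an Egr2 UMI (vertical axis, cropped at -4) against the mean level (horizontal axis, log10 CPM) for the 10178 genes tested, with genes past an adjusted p of 0.05 in colour. Egr3, Ccl4, Nr4a1 and Egr1 lie at the top and Tsc22d3 and Klf2 among the genes that fell.

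The 7 EGR and NR4A list members that could be tested all rose, as they did in DESeq2 and when each library in turn was left out, with a median log2 fold change of 3.14 beside -0.02 for all genes tested. The counts of this list and of those below stand beside 5.9% higher and 3.65% lower of all 10178 genes tested. No test set a list against these shares. Egr1 had 67.3, 771, 504 and 605 CPM in the Egr2 cells of 7-week liver, 7-week spleen, neonatal liver and neonatal spleen, against 45.3, 46.1, 36.2 and 53.5 CPM in the other Foxp3 cells of these libraries. The classes did not overlap, but the 7-week liver value lay close to the comparator. The log2 fold change was 3.64 ± 0.12 (SE of the fit over 4 libraries, edgeR adjusted p = 3.44e-74). Nr4a1, which encodes NUR77, followed the same pattern with 135, 1018, 901 and 865 CPM in Egr2 cells, against 62.2, 56.2, 55.2 and 76.1 CPM. Its log2 fold change was 3.72 ± 0.13 (edgeR adjusted p = 4.21e-72). Within libraries Nr4a1 was 18.1-fold higher in Egr2 cells of 7-week spleen, 16.3-fold in neonatal liver and 11.4-fold in neonatal spleen, while in 7-week liver the ratio of 2.16 had a counting interval of 0.787 to 4.76.

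Egr3, the closest partner of Egr2 in T cells (chr14:70077203-70082614 on GRCm38), had the largest log2 fold change of all genes tested, 4.50 ± 0.27 (edgeR adjusted p = 2.17e-37). Its levels were 0, 48.1, 36.9 and 50.9 CPM in Egr2 cells, against 0.62, 2.01, 1.42 and 2.46 CPM. It was not detected in the Egr2 cells of 7-week liver and was high in those of the other 3 libraries. Egr4 had too few UMIs to be tested, with 0, 12.0, 2.84 and 8.37 CPM in Egr2 cells, against 0.62, 0.322, 0.163 and 0.176 CPM.

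The other NR4A receptors were higher in Egr2 cells of all 4 libraries. Nr4a2 had 44.9, 78.2, 116 and 25.8 CPM in Egr2 cells, against 16.5, 13.1, 13.7 and 4.97 CPM (log2 fold change 2.68 ± 0.18, edgeR adjusted p = 1.04e-30). Nr4a3 had 89.7, 56.5, 61.5 and 47.0 CPM, against 12.4, 8.37, 5.45 and 4.93 CPM (3.14 ± 0.21, edgeR adjusted p = 1.17e-31). Nr4a3 was the gene of this group with the clearest difference in 7-week liver, where its ratio was 7.23 (1.91 to 19.5). The co-repressors rose less: Nab2 had 22.4, 160, 96.5 and 125 CPM, against 40.5, 49.8, 45.7 and 51.0 CPM (1.32 ± 0.12, edgeR adjusted p = 3.13e-21), and the change in Nab1 was 0.84 ± 0.18 (edgeR adjusted p = 0.000325). Nab2 was lower in the Egr2 cells of 7-week liver, on a single UMI, and higher in the other libraries.

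**Figure D3:**
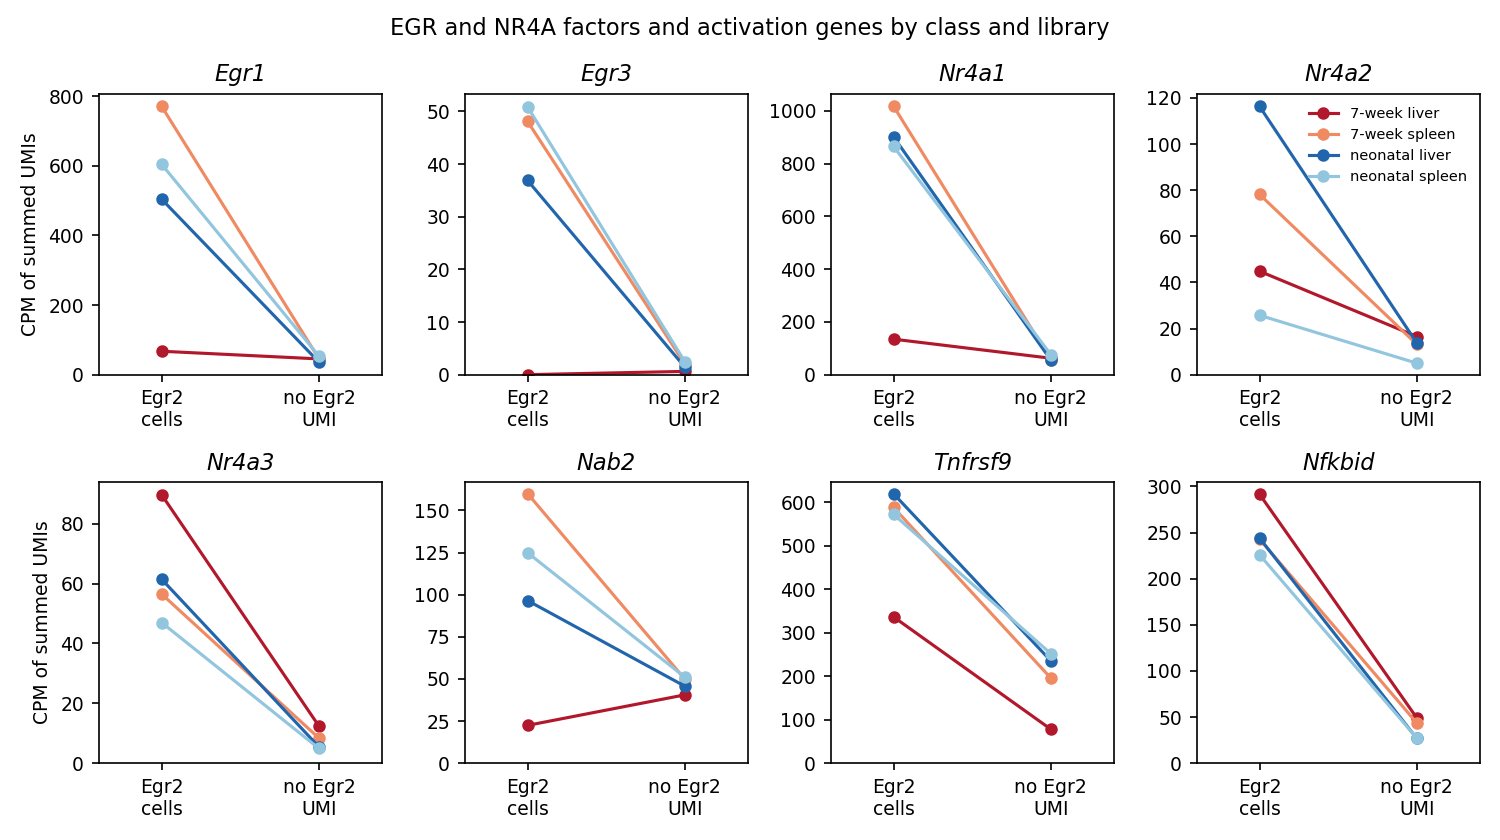
CPM of 8 genes in Egr2 cells and in Foxp3 cells without an Egr2 UMI, 1 point for each library and class. Nr4a1 stands between 865 and 1018 CPM in the Egr2 cells of 3 libraries and at 135 CPM in those of 7-week liver.

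Egr1, Egr3 and Nr4a1 were found together in a larger share of Egr2 cells than of the other Foxp3 cells, except in 7-week liver. At full depth these shares were 8.65%, 16.8% and 19.4% in 7-week spleen, neonatal liver and neonatal spleen, against 0.113%, 0.352% and 0.482%. An Egr1 UMI was found in 22.2%, 69.2%, 55.7% and 70.6% of Egr2 cells of 7-week liver, 7-week spleen, neonatal liver and neonatal spleen, against 10.5%, 9.92%, 12.8% and 15.2% of the other Foxp3 cells. With every cell thinned to 1000 UMIs the shares were 0%, 38.0%, 31.0% and 40.2% of Egr2 cells, against 4.16%, 3.89%, 3.64% and 4.90%. The gap therefore remained at equal depth, except in 7-week liver. At least 1 of Egr1, Egr3 and Nr4a1 was missing in most Egr2 cells: all 3 were detected in 0, 16, 22 and 41 of them, and none in 5, 41, 34 and 33. In the far larger comparator all 3 were detected in 0, 4, 14 and 19 cells.

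Cells with 2 or more Egr2 UMIs had higher levels of Egr1, Egr3, Nr4a1, Nr4a3 and Nfkbid than cells with exactly 1 in 7-week spleen, neonatal liver and neonatal spleen, but not of every induced gene; both are within the rule and no test was made. Nr4a1 had 1503, 1599 and 1138 CPM in cells with 2 or more in 7-week spleen, neonatal liver and neonatal spleen, against 627, 541 and 635 CPM in cells with 1. Egr1 had 1201, 999 and 937 CPM, against 425, 248 and 324 CPM. Egr3 had 86.4, 41.6 and 78.8 CPM, against 17.4, 34.4 and 27.3 CPM, and Nr4a3 had 81.0, 69.4 and 56.3 CPM, against 36.9, 57.4 and 39.2 CPM. In neonatal liver these 2 differences were small and rested on few UMIs, 15 against 24 for Egr3 and 25 against 40 for Nr4a3. Nfkbid, an IκB protein that TCR signals induce, had 302, 336 and 281 CPM, against 195, 197 and 179 CPM. Nr4a2 was not uniform, with 146, 119 and 14.1 CPM, against 23.9, 115 and 35.6 CPM, and Cd83 had 267, 136 and 219 CPM, against 293, 123 and 286 CPM. Klf2 ran the other way, with 251, 77.7 and 217 CPM, against 306, 195 and 378 CPM. Tnfrsf9 and Myc did not follow the Egr2 count so closely: Tnfrsf9 had 586, 655 and 623 CPM, against 590, 601 and 530 CPM, and Myc had 186, 214 and 304 CPM, against 195, 266 and 330 CPM. In 7-week liver only 1 cell had 2 or more Egr2 UMIs.

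Of 16 tested genes of the TCR signal list, 13 rose and 0 fell, with a median log2 fold change of 1.14. Spry1, a brake on MAP kinase signalling, rose by 2.26 on the log2 scale, with 22.4, 27.7, 52.0 and 24.5 CPM in Egr2 cells, against 5.17, 8.94, 6.51 and 6.20 CPM (edgeR adjusted p = 4.51e-15). Rgs16, a regulator of G protein signals, had 89.7, 146, 143 and 61.2 CPM, against 30.4, 22.1, 34.8 and 18.1 CPM, a log2 change of 2.14 (edgeR adjusted p = 9.88e-38). Neither gene overlapped between the classes. Tagap changed by 1.58, Dusp2, a phosphatase of MAP kinases, by 1.25 and Gadd45b by 1.17 (edgeR adjusted p between 1.14e-18 and 2.4e-29). Irf4, needed for effector Treg differentiation, changed by 1.91 and Cd69, the early activation receptor that keeps T cells in tissue, by 1.11. Cd69 had 493, 438, 259 and 335 CPM in Egr2 cells, against 355, 222, 132 and 106 CPM. Cd5, whose level follows the strength of self-recognition, was at a log2 difference of 0.04 (edgeR adjusted p = 0.902).

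Myc, a driver of cell growth in this list and in the ribosome biogenesis list, had 22.4, 191, 248 and 318 CPM in Egr2 cells, against 69.9, 88.0, 62.3 and 102 CPM. It was lower in Egr2 cells of 7-week liver and higher in the others, with a log2 fold change of 1.54 (edgeR adjusted p = 1.27e-28), and did not pass in DESeq2. All 19 ribosome biogenesis and MYC genes rose, with a median of 0.75. Odc1, which starts polyamine synthesis, changed by 1.18, Srm, the spermidine synthase, by 1.06, Ncl by 0.63 and Npm1 by 0.36. Npm1 had 1637, 1137, 1348 and 1213 CPM in Egr2 cells, against 736, 997, 992 and 1038 CPM, so even the smallest of these changes was seen in every library. Of 5 amino acid transporters 4 rose, among them Slc7a5 by 1.08 and Slc7a1 by 1.14 on the log2 scale. Of the ribosome biogenesis genes 18 rose against the comparator of like depth, 12 without neonatal liver, 10 in DESeq2 and 9 with 2 or more Egr2 UMIs. Of the transporters 1 rose without neonatal spleen, 2 in DESeq2 and 0 with 2 or more Egr2 UMIs, and neither Slc7a5 nor Slc7a1 passed without neonatal spleen.

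Among costimulatory receptors 6 of 11 rose and 0 fell, and among inhibitory receptors 7 of 8 rose and 0 fell, with medians of 0.70 and 0.78; DESeq2 called 6 and 5 higher. Tnfrsf9, which encodes 4-1BB, had 336, 588, 620 and 572 CPM in Egr2 cells, against 78.0, 196, 235 and 252 CPM, a log2 change of 1.41 (edgeR adjusted p = 4.51e-27). Tnfrsf4, which encodes OX40, had 1525, 1061, 1836 and 1517 CPM, against 386, 529, 828 and 714 CPM, a change of 1.16 (edgeR adjusted p = 8.34e-16). Both stood apart between the classes in every library, 7-week liver included. Cd83 changed by 1.61 (edgeR adjusted p = 3.41e-32) and Cd40lg, the ligand of CD40, by 1.57 (edgeR adjusted p = 4.94e-15).

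Ctla4, the inhibitory receptor that Treg cells use to strip CD80 and CD86 from presenting cells, had 807, 499, 1181 and 567 CPM in Egr2 cells, against 410, 307, 512 and 295 CPM. It changed by 0.92 (edgeR adjusted p = 2.13e-12) and was higher in Egr2 cells of each library than in its own comparator. Lag3 changed by 1.01, Cd160 by 1.47 and Tigit by 0.60 (edgeR adjusted p between 1.57e-14 and 3.28e-06). Pdcd1, which the rule used, is given as a description: 135, 244, 176 and 162 CPM in Egr2 cells and 27.3, 80.0, 68.9 and 60.6 CPM in the others.

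Of 17 NF-κB pathway genes 12 rose and 0 fell, with a median of 0.48; 8 rose in DESeq2 and 6 with 2 or more Egr2 UMIs. Nfkbid, the IκB protein that is itself needed for Treg development, had 292, 243, 244 and 226 CPM in Egr2 cells, against 49.0, 43.6, 26.8 and 27.2 CPM. The classes were far apart in all 4 libraries, and the log2 fold change was 2.88 ± 0.11 (edgeR adjusted p = 1.04e-64). The survival genes Bcl2a1b and Bcl2a1d, near-identical copies whose reads may be split between them, changed by 1.93 and 1.88 (edgeR adjusted p = 8.59e-43 and 9.88e-38). Nfkbiz, another IκB protein, changed by 1.58 (edgeR adjusted p = 2.68e-29), and Nfkbia, the inhibitor that NF-κB induces broadly, by 0.36.

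Of 16 cytokine and chemokine genes 11 rose and 1 fell, with a median of 1.13, and 7 rose in DESeq2. Ccl4, an inflammatory chemokine (chr11:83662584-83664683), had 67.3, 19.2, 1023 and 38.6 CPM in the Egr2 cells of 7-week liver, 7-week spleen, neonatal liver and neonatal spleen, against 5.79, 1.21, 54.4 and 3.74 CPM. It was higher in Egr2 cells of every library, with a log2 fold change of 4.03 ± 0.15 (edgeR adjusted p = 1.29e-65). Few cells made it: in neonatal liver 26 Egr2 cells held 1082 Ccl4 UMIs and the 5 highest held 75.5% of them, and in neonatal spleen 3 cells held all 60. Ccl3, a related chemokine, had 0, 1.20, 123 and 7.08 CPM, against 0.414, 0, 20.1 and 0.792 CPM (2.78 ± 0.30, edgeR adjusted p = 6.67e-15), and 61.5% of its UMIs in neonatal liver were also in 5 cells. Ccl3 had too few UMIs to be tested when neonatal liver or neonatal spleen was left out.

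Il10, the suppressive cytokine of effector Treg cells, had 0, 8.42, 245 and 45.7 CPM in Egr2 cells, against 5.58, 4.03, 33.9 and 7.21 CPM. It was highest in neonatal liver and not detected in the Egr2 cells of 7-week liver, and its log2 fold change was 2.61 ± 0.17 (edgeR adjusted p = 3.41e-32). It was spread more widely than Ccl4, over 57 Egr2 cells of neonatal liver. Tnfsf11, which encodes RANKL, changed by 1.73 and Tnf by 1.65 (edgeR adjusted p = 2.49e-25 and 4.2e-23). Ccl5 was the member that fell, by 0.57 on the log2 scale, although it was higher in Egr2 cells of neonatal liver, and it no longer passed without 7-week liver.

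Genes of resting, recirculating T cells were lower in Egr2 cells: 10 of 14 fell and 0 rose, with a median of -0.69. Klf2, the factor that keeps T cells in circulation, had 336, 281, 155 and 304 CPM in Egr2 cells, against 996, 622, 496 and 635 CPM. Every Egr2 value lay below every comparator value, and the log2 fold change was -1.33 ± 0.12 (edgeR adjusted p = 1.1e-20). S1pr1, a KLF2 target that lets cells leave tissue, had 89.7, 78.2, 43.5 and 120 CPM, against 192, 152, 123 and 199 CPM, a fitted level 0.499 times that of the others (edgeR adjusted p = 5.61e-12). Ccr7, the lymph node homing receptor, had 22.4, 99.8, 30.3 and 138 CPM, against 244, 189, 140 and 188 CPM (-1.04 ± 0.13, edgeR adjusted p = 1.1e-11). In Ccr7 the spleens lay closer to their comparators than the livers did. Il7r, the receptor of IL-7, changed by -0.49 and Igfbp4 by -1.37.

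The lowest log2 fold change among the named genes was that of Tsc22d3, the glucocorticoid-induced leucine zipper gene on the X chromosome. It had 426, 86.6, 43.5 and 50.9 CPM in Egr2 cells, against 545, 316, 154 and 134 CPM, a change of -1.59 ± 0.13 (edgeR adjusted p = 8.89e-24). It was lower in Egr2 cells of each library, least so in 7-week liver. Txnip, an inhibitor of glucose uptake, had 179, 230, 132 and 229 CPM, against 576, 473, 351 and 493 CPM (-1.22, edgeR adjusted p = 4.15e-19). Pik3ip1, an inhibitor of PI3 kinase, changed by -1.21, Klf3 by -1.15 and the pro-apoptotic gene Bbc3 by -1.06 (edgeR adjusted p between 1.31e-14 and 0.000932). Bbc3 did not pass against the comparator of like depth, without 7-week spleen or in DESeq2.

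Genes of the IL-2 and STAT5 response split. Socs3 fell by 1.42 and Socs2 by 1.19 on the log2 scale, with Socs3 at 22.4, 20.4, 29.3 and 14.8 CPM in Egr2 cells, against 69.3, 67.0, 44.6 and 57.5 CPM (edgeR adjusted p = 6.1e-12 for Socs3 and 1.34e-10 for Socs2). Pim1 and Bcl2 also fell, by 0.60 and 0.38. Bcl2l1, which encodes BCL-XL, and Il2ra, which encodes CD25, rose by 0.60 and 0.32 (edgeR adjusted p = 0.000857 and 0.0323). Cish, a direct STAT5 target, was at 0.00 (edgeR adjusted p = 0.998). In all 2 of 12 rose and 4 fell, in DESeq2 0 rose and 3 fell, and Bcl2l1 did not pass against the comparator of like depth, without neonatal spleen or in DESeq2.

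The effector Treg list did not move as a whole. Of 22 members 4 rose and 8 fell, with a median of -0.37. Ccr8, a receptor of tissue Treg cells, had 471, 189, 620 and 246 CPM in Egr2 cells, against 22.1, 43.6, 130 and 74.6 CPM, a log2 fold change of 2.13 ± 0.11 (edgeR adjusted p = 4.93e-44). Ccr2, the receptor of inflammatory homing, fell by 1.30 (edgeR adjusted p = 8.4e-11). Gzmb, the gene of granzyme B, had 0, 6.01, 806 and 61.8 CPM in Egr2 cells, against 81.7, 26.0, 824 and 197 CPM, so that the classes were almost level in neonatal liver and apart elsewhere. Without neonatal spleen 2 members fell, as without the 5% of barcodes with the most UMIs and as in DESeq2.

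Treg identity genes were close to level, with 3 of 12 higher, 0 lower and a median of -0.06. Ikzf2, which encodes HELIOS, had 471, 536, 468 and 426 CPM in Egr2 cells, against 431, 489, 502 and 437 CPM (log2 difference -0.02, edgeR adjusted p = 0.954). Foxp3, which the rule used, had 493, 619, 442 and 440 CPM in Egr2 cells and 688, 637, 529 and 540 CPM in the others. Tnfrsf18, which encodes GITR, was at 0.30 (edgeR adjusted p = 0.0752). Ctla4, Nt5e and Il2ra were the members that rose; 1 rose without 7-week spleen, without neonatal spleen or in DESeq2, 2 without neonatal liver and 5 without 7-week liver. Il2ra passed in none of these except without 7-week liver, and Nt5e passed neither without a spleen library nor in DESeq2.

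The anergy and negative feedback list, which holds genes reported as targets of EGR2 and EGR3 in T cells, had 5 of 13 higher and 1 lower, with a median of 0.23. Sh2d2a, an adaptor of TCR signalling, changed by 0.98 and Nrn1 by 0.54 (edgeR adjusted p = 1.58e-15 and 0.000298). Cblb, the ubiquitin ligase of T cell anergy, was at a log2 difference of 0.19 (edgeR adjusted p = 0.473), and Dgka, which quenches diacylglycerol signals, fell by 0.31. Of the list 7 rose without 7-week liver, 2 without neonatal spleen and 2 in DESeq2, and 0 fell in each. Nrn1 did not pass without neonatal spleen or in DESeq2. Of 7 tested follicular genes 4 rose and 1 fell, and the first of these by size was Angptl2, at a log2 change of 1.99 (edgeR adjusted p = 3.45e-15); 2 rose without 7-week spleen and 2 in DESeq2.

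Immediate early and stress genes were mixed, although EGR and NR4A genes are themselves induced within minutes to hours. Of 18 members 8 rose and 2 fell, with a median of 0.29; 3 rose without neonatal liver, 4 without neonatal spleen and 3 in DESeq2. Ier2 rose by 1.20 (edgeR adjusted p = 3.09e-21), while Jun, a subunit of AP-1 that dissociation of tissue can also induce, fell by 0.81. Jun had 22.4, 158, 29.3 and 38.6 CPM in Egr2 cells, against 374, 231, 58.3 and 61.0 CPM, and it did not pass in DESeq2. Fos had 247, 183, 239 and 149 CPM, against 561, 204, 141 and 79.0 CPM, so its direction differed between the ages.

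Proliferation genes showed no steady difference. Of 23 members 3 rose, the replication genes Hells, Mcm3 and Mcm6, and 0 fell, with a median of 0.17. Over all genes tested 5.9% rose and 3.65% fell. Mki67 was at 0.09 (edgeR adjusted p = 0.786). Against the comparator of like depth 0 rose and 8 fell, with a median of -0.38, and without the 5% of barcodes with the most UMIs 0 rose and 2 fell. Barcodes with a Mki67 or Top2a UMI made up 22.2%, 10.8%, 28.2% and 13.7% of Egr2 cells and 12.6%, 7.07%, 23.6% and 15.8% of the others. Hells, Mcm3 and Mcm6 did not pass when 7-week spleen or neonatal spleen was left out, nor in DESeq2. In glycolysis 5 of 15 rose, and 2 against the comparator of like depth, without 7-week spleen or without neonatal liver. In the interferon response list 2 of 14 rose and 2 fell, and without 7-week liver 0 rose and 2 fell. With so few calls this list is not read as changed beside the shares over all genes tested. Of 6 genes of recent thymic output 3 rose and 0 fell, with a median of 0.47, and 1 in DESeq2.

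**Figure D4:**
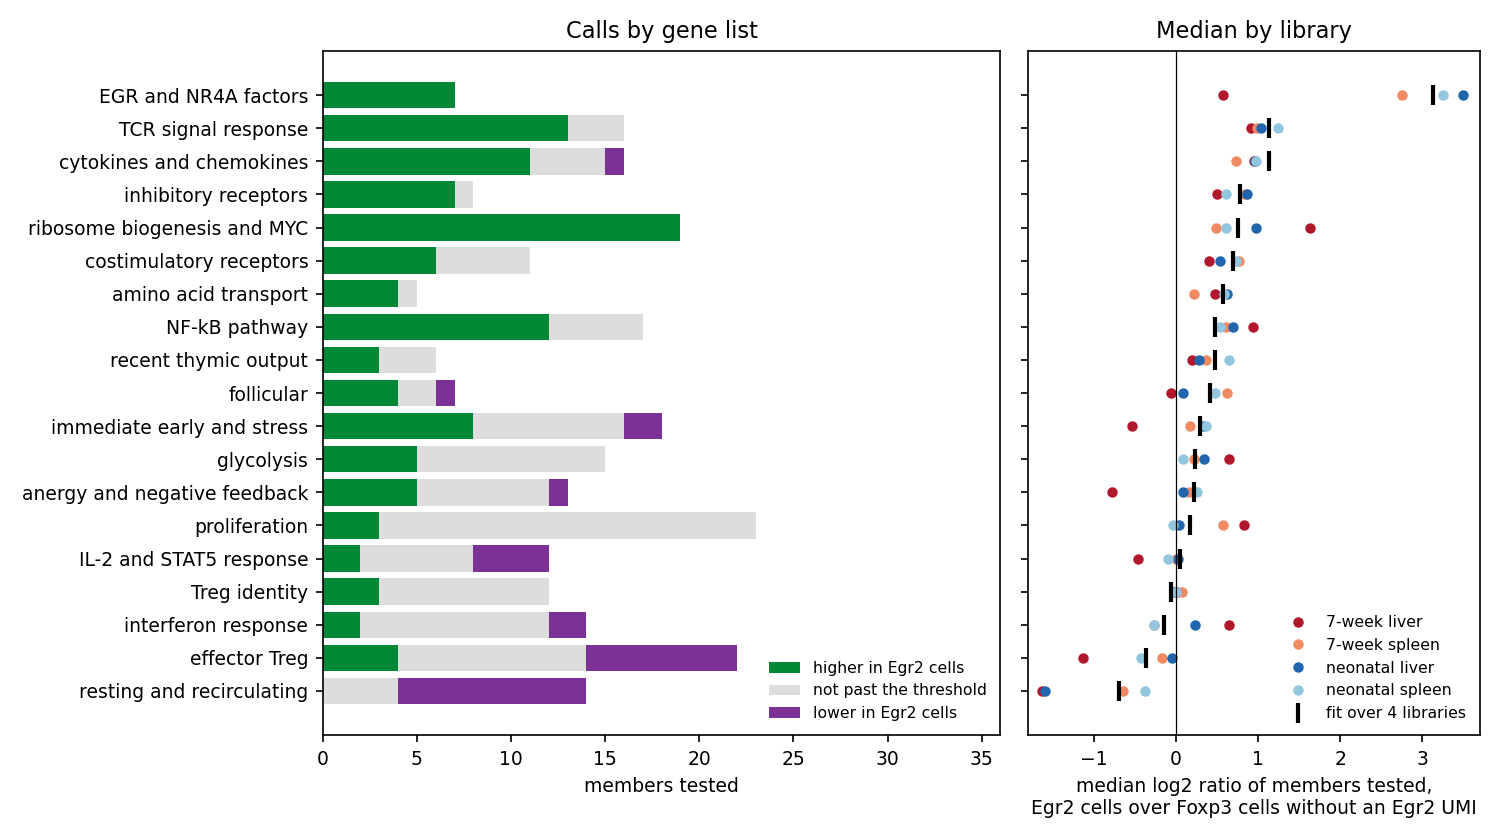
Number of members of each gene list called higher and lower in Egr2 cells (left) and the median log2 ratio of the tested members in each library (right). Over all genes tested 5.9% were called higher and 3.65% lower. The EGR and NR4A list has medians of 2.76, 3.49 and 3.25 in 7-week spleen, neonatal liver and neonatal spleen and of 0.57 in 7-week liver.

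The difference between the classes was then compared between tissues and between ages, as an interaction in the same model. For tissue, 47 of 10178 genes (0.462%) passed, 17 of them TCR V segments, which follow clones, 12 of them histone genes and 18 others. Ccr7 fell more in liver, with an interaction (liver minus spleen, log2) of -1.63 (edgeR adjusted p = 7.75e-05). Zfp36, which destabilises cytokine mRNAs, had 404, 720, 502 and 666 CPM in Egr2 cells, against 807, 367, 385 and 295 CPM, an interaction of -1.09 (edgeR adjusted p = 0.00219). Id3, an inhibitor of E proteins, had 112, 451, 59.6 and 478 CPM, against 87.7, 245, 82.3 and 344 CPM, an interaction of -1.04 (edgeR adjusted p = 0.0187). In both genes the Egr2 cells of the spleens were above their comparators, while the livers were not both so.

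Of the further genes, Tcf7, Gzmb and Ccl5 were chosen after their values were seen. Tcf7, the gene of the resting T cell factor TCF1, had 0, 102, 12.3 and 113 CPM in Egr2 cells, against 109, 108, 49.2 and 103 CPM, so it was level in the spleens and lower in the livers (interaction -2.18, edgeR adjusted p = 3.18e-05). Gzmb had an interaction of 1.66 (edgeR adjusted p = 1.92e-06) and Ccl5 of 1.15 (edgeR adjusted p = 0.0137), both lower in Egr2 cells of both spleens and of 7-week liver, and level or higher in those of neonatal liver. Ly6a, which encodes SCA-1, had 920, 295, 957 and 127 CPM, against 919, 549, 755 and 219 CPM, an interaction of 0.99 (edgeR adjusted p = 0.0185). Without 7-week liver, where liver is 1 library whose spread is assumed to be that of the others, these interactions were -1.53 for Ccr7, -0.64 for Zfp36, -1.08 for Id3, -1.99 for Tcf7, 1.72 for Gzmb, 1.48 for Ccl5 and 1.24 for Ly6a, and 42 of the 47 genes passed again.

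For age, 11 genes (0.108%) passed, 5 of them receptor segments. The other 6 were Xcl1, Cxcl10, Mt1, Ccnb2, Lyz2 and Fos. Fos had an interaction (7-week minus neonatal, log2) of -1.35. Lyz2, a gene of myeloid cells, had 22 UMIs in 5 Egr2 cells of 7-week spleen and 0 in those of the other libraries. Summed macrophage and monocyte markers were at 40.9 CPM in the Egr2 cells of 7-week spleen, against 0 to 18.7 CPM in those of the other libraries. They were at 10.5 CPM in the other Foxp3 cells of 7-week spleen. The part of these markers in the age result was not tested. Without 7-week liver the older age is 1 library, whose spread is assumed to be that of the others, and 6 of the 11 passed again. No EGR or NR4A member passed either interaction. The Egr2 cells of 7-week liver gave few UMIs and weigh little in these fits. The result therefore does not show that this list differed alike in all libraries. Its median log2 ratio was 0.57 in 7-week liver and 2.76, 3.49 and 3.25 in 7-week spleen, neonatal liver and neonatal spleen.

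Between libraries, Egr2 cells of neonatal liver were set against those of neonatal spleen as ratios of CPM, with counting intervals and no test, since each is 1 library. Of 5142 genes with enough UMIs, 206 were 2-fold or more higher in liver (4.01%) and 168 lower (3.27%). In the Foxp3 cells without an Egr2 UMI 126 of 4961 were higher and 53 lower. The sums of Egr2 cells hold fewer UMIs and have more counting error, so the counts of the 2 classes are not compared. High ratios included those of the chemokine and cytotoxic genes, with Ccl4 at 26.5 (20.4 to 35.0), Ifng at 24.2, Ccl5 at 19.2 (16.2 to 22.8) and Gzmb at 13.0 (10.6 to 16.3). In the Foxp3 cells without an Egr2 UMI the same ratios were 14.5, 4.91, 5.55 and 4.18, so the tissues differed in the same direction in both classes. At the other end were Cldn10 at 0.0350, Plagl1 at 0.0700, Satb1, a chromatin organiser of T cells, at 0.0933 and Tcf7 at 0.108 (0.0567 to 0.191), against 0.0707, 0.321, 0.469 and 0.475 in the other class.

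Egr2 cells of 7-week spleen were set against those of neonatal spleen in the same way. Of 5297 genes, 234 were 2-fold or more higher in 7-week spleen (4.42%) and 192 lower (3.62%). In the Foxp3 cells without an Egr2 UMI, whose sums hold more UMIs, 134 of 5135 were higher and 126 lower. Oas1a, an antiviral enzyme gene that interferon induces, had a ratio of 52.3 (8.65 to 2139), Iigp1, an interferon-induced GTPase gene, of 20.9, Casp1 of 9.96 and Serpina3g of 8.59, and the last 3 of these had ratios of 8.10, 3.95 and 3.64 in the other class. The lowest named genes were 7 histone genes, made in S phase, and the cyclin gene Ccna2, with Hist1h2bn at 0.0203, Hist1h3f at 0.0283 and Ccna2 at 0.0812, the last against 0.174 in the other class. Hist1h3b was not detected in 7-week spleen and stood at 35.4 CPM in neonatal spleen, which is at least 9.81-fold higher in neonatal spleen against a floor of 3 counts over the class. Lyz2 was at least 13.7-fold higher in 7-week spleen by the same floor.

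**Figure D5:**
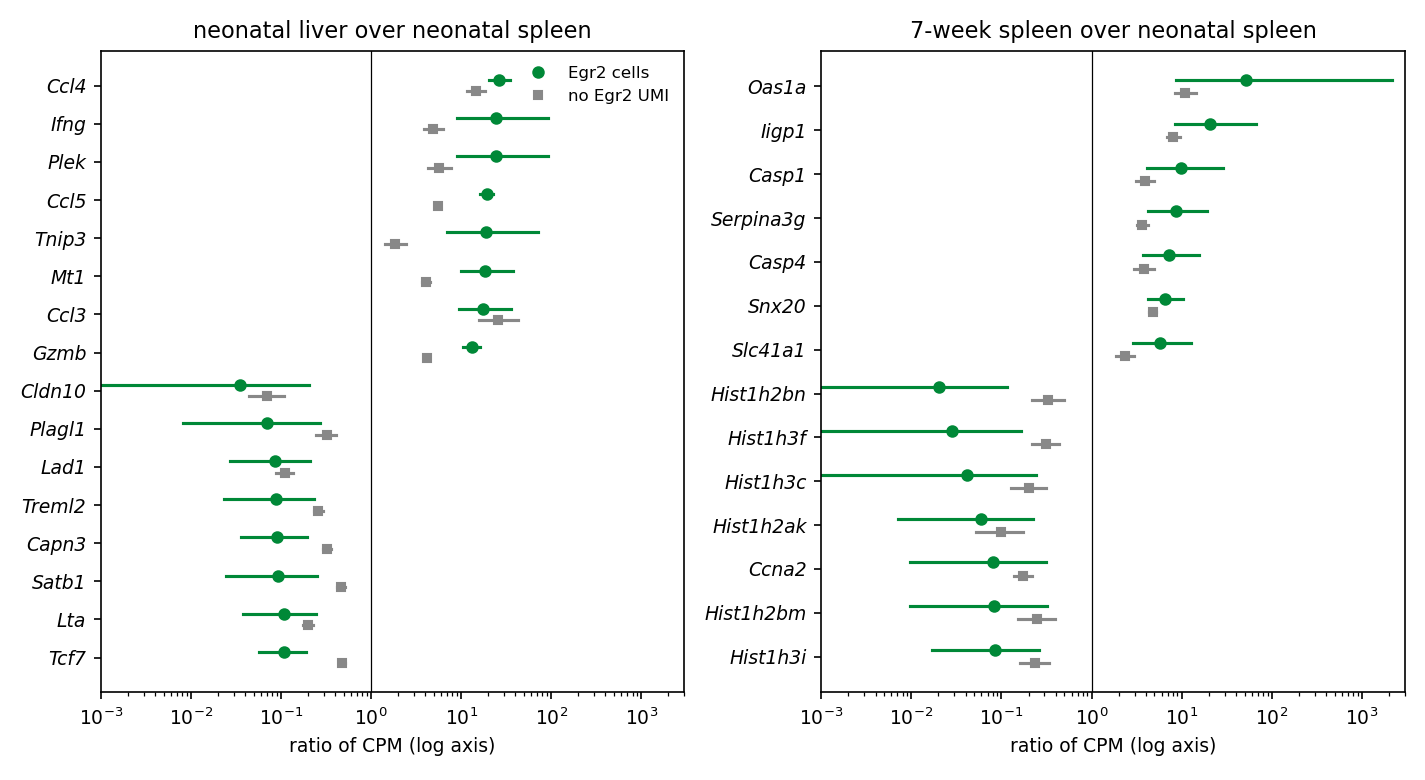
CPM ratios with exact 95% conditional binomial intervals (log axis) for the named genes, neonatal liver over neonatal spleen and 7-week spleen over neonatal spleen, in Egr2 cells and in Foxp3 cells without an Egr2 UMI. Ccl4 lies at 26.5 and 14.5 in the 2 classes, and Tcf7 at 0.108 and 0.475; some intervals run past the left edge.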

How the data were processed

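The authors deposited unnormalised UMI counts as 10x matrices, with genes by barcodes, for 4 libraries; per the file headers they come from Cell Ranger 4.0.0, and the submitters' processing notes name mm10 and Seurat 4.0.2. UMI totals were 7442185, 20246352, 32519356 and 33813594 for 7-week liver, 7-week spleen, neonatal liver and neonatal spleen. The members and gene lists were chosen with earlier results of these data known. No doublet caller was run, and the main results keep likely doublets. Barcodes over the 95th percentile of UMIs or with 2 or more markers of another lineage were left out only in alternative fits. Those over the 95th percentile made up 33.3%, 14.1%, 16.0% and 15.6% of Egr2 cells in 7-week liver, 7-week spleen, neonatal liver and neonatal spleen. In the other Foxp3 cells they made up 7.09%, 5.88%, 8.79% and 7.03%. UMIs were summed per library and class and tested with edgeR 4.0.16 (R 4.3.3, limma 3.58.1; TMM, genes with a count of 10 in 4 sums and a total of 40, 3 residual degrees of freedom). DESeq2 1.42.0 was an alternative. The 8 sums pair by construction, since both classes of a library come from the same sorted suspension, so the library is a block. The 4 libraries are 4 different conditions. The p-values and SEs come from a fit whose spread is moderated over all genes and in which sums with few UMIs weigh little. They do not measure the plain spread of the 4 library differences, and a small p does not mean that the 4 libraries agree. The SE is the size of the log2 fold change divided by the square root of the F statistic. CPM is a gene's UMIs per 1000000 UMIs of a class sum. Intervals and floors cover counting error only (95%, 3 counts). Ratios between libraries needed 25 CPM and 20 UMIs in the higher library.

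On data simulated from these sums with 50 genes at each fold, 50 of 50 were recovered at 4-fold higher and 43 at 2-fold higher. At 0.5-fold 37 were recovered and at 0.25-fold 42, with 5 false calls among 9755 unchanged genes. The counts were drawn from the fitted model itself, with the same fold in every library and changes only in genes with more UMIs. Folds that differ between libraries and UMIs held by few cells were not simulated, so the false calls among the real calls cannot be read from it. The genes named in the class comparison were the 12 with the highest and the 12 with the lowest log2 fold change past an adjusted p of 0.05, with 25 CPM in the higher class and the same direction in 3 libraries, all EGR and NR4A members, and up to 4 of each list by p; between libraries, the 8 highest and 8 lowest ratios. List members outside this rule are named where their role bears on the list, and were chosen after their values were seen. Of 32285 features 32235 (99.8%) matched GENCODE vM21, the source of coordinates.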

Additional observations from a re-analysis of the deposited data

Results flagged for a closer look

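The class difference of 4 named genes differed between tissues in a test of the interaction (liver minus spleen, log2): Ccr7 at -1.63, Id3 at -1.04, Zfp36 at -1.09 and Ly6a at 0.99. Without 7-week liver the values were -1.53, -1.08, -0.64 and 1.24.

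Egr2 UMIs were also found in barcodes that enter no comparison of Egr2 cells. Among barcodes without a Foxp3 UMI, 0.518% had one in 7-week liver, 5.33% in 7-week spleen, 1.99% in neonatal liver and 4.20% in neonatal spleen. These shares were flagged only as above the count of 0 that a library without the transcript would give. The pooled interval of Dapl1 barcodes without Foxp3 ran from 0.111% to 3.26%. Both liver shares lay inside it and both spleen shares above it. The shares of Foxp3 cells were 0.622%, 4.97%, 3.19% and 5.09%. At 1000 UMIs per cell the barcodes without a Foxp3 UMI had 0.466%, 2.80%, 1.21% and 1.68%, against 0.0713%, 2.14%, 0.962% and 1.41% of Foxp3 cells. The exact binomial intervals of both kinds of cell overlapped in every library, and no test was made. In 7-week liver these shares were 4 of 858 barcodes and 1 of 1402 Foxp3 cells. Among Foxp3 cells with both Cxcr5 and Pdcd1 the share was 16.2% in 7-week spleen and 13.7% in neonatal spleen, at median depths of 5275 and 8087 UMIs, and 5.71% and 4.11% at 1000 UMIs per cell.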

How the results depend on the processing

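The main counts of 600 genes higher and 371 lower in Egr2 cells became 203 and 85 with DESeq2, and 13 and 0 without the replicate block, where 475 and 367 had an unadjusted p under 0.05. Leaving out each library in turn gave 338 to 586 higher and 174 to 325 lower; each such fit has fewer sums. Egr2 cells with 2 or more UMIs gave 231 and 153. Without barcodes over the 95th percentile of UMIs 459 were higher and 216 lower, and without barcodes with markers of other lineages 561 and 319. No named gene changed sign under any of these settings. Of 78 named genes past the threshold, 69 were lost without the replicate block, 21 with DESeq2 and 22 with 2 or more Egr2 UMIs. Without neonatal spleen 18 were lost, and without 7-week spleen 13. With the comparator of like depth 10 were lost, and 3 more, Egr3 among them, had no value. The age interaction had 17 genes with library totals only. Without 7-week liver, an alternative chosen after seeing the data, the age and tissue interactions had 8 and 59 genes. The share of Egr2 cells moved to 0.0713%, 2.14%, 0.962% and 1.41% of 7-week liver, 7-week spleen, neonatal liver and neonatal spleen at 1000 UMIs per cell, and to 0.0691%, 2.04%, 1.05% and 2.22% with 2 or more UMIs. Between libraries, limits of 50 CPM and 40 UMIs left 115 genes higher and 70 lower in neonatal liver over neonatal spleen and 87 and 80 in 7-week spleen over neonatal spleen; with 2 or more Egr2 UMIs 365 and 374 were lower. Depth limits 7-week liver most, with 44585 UMIs in its Egr2 cells.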

Other observations

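Other list members also separated the classes, of which Penk and Csf1 were chosen after their values were seen. Penk, the precursor of enkephalin peptides, had 135, 206, 747 and 347 CPM in Egr2 cells of 7-week liver, 7-week spleen, neonatal liver and neonatal spleen, against 39.1, 82.9, 250 and 239 CPM in the other Foxp3 cells (log2 fold change 1.15, edgeR adjusted p = 9e-18). It was higher in Egr2 cells of every library. Slc16a3, a lactate exporter, had 67.3, 31.3, 72.8 and 34.8 CPM, against 15.1, 10.6, 33.5 and 21.8 CPM (1.08, edgeR adjusted p = 4.52e-07). Csf1, the growth factor of macrophages, had 67.3, 34.9, 38.8 and 24.5 CPM, against 20.3, 20.4, 22.6 and 7.92 CPM (1.07, edgeR adjusted p = 1.86e-05). Csf1 was likewise higher in Egr2 cells of all 4 libraries.

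Between neonatal liver and neonatal spleen, Egr2 cells differed in Mt1, a metallothionein gene, with a CPM ratio of 18.2, and in Tnip3, an inhibitor of NF-κB, with a ratio of 18.7; in the other Foxp3 cells the ratios were 4.06 and 1.86. Lta, the gene of lymphotoxin alpha, had a ratio of 0.107, against 0.199 in the other Foxp3 cells. These are ratios of single libraries, and the difference between the classes passed the tissue interaction for none of these 3 genes.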
